A study of Drosophila melanogaster with 30 samples.

Results

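The translation initiation factors (eIF) and elongation factors (eEF) of the fly were followed in whole brains of Drosophila melanogaster across sleep, sleep deprivation and waking. They were taken as the probe sets that carry exactly 1 gene symbol, brought up to date by Entrez gene number, where that symbol begins with eIF or eEF. The rule gave 42 genes on 48 probe sets, out of 10844 named genes and 13966 probe sets that are not controls. Each gene was represented by its probe set with the highest mean over the 30 arrays. Among current fly gene symbols 52 follow the same rule, and the other 10, among them eEF1alpha1, eEF2, eIF2alpha and eIF2gamma, were not analysed here.

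All flies were virgin Canton-S females of 5 days, kept 50 to a population at 25 °C with 12 h of light, and each RNA sample came from a pool of 139 to 193 brains hybridised to 1 Affymetrix Drosophila Genome 1.0 array. In the deprivation experiment (21 arrays) flies were taken at ZT14, which is 14 h after lights on and the start of their consolidated sleep, or after 2, 4 or 6 h in which they either slept undisturbed or were kept awake by stimulating their monitors by hand. The active period experiment (9 arrays) took flies undisturbed at ZT10, undisturbed after 4 h at ZT14 (awake group), or at ZT14 after 4 h of the same stimulation (stimulated group). Each of the 10 groups had 3 biological replicates. No genotype, drug or transgene differs between the groups, and because whole brains were pooled, fewer cells of a type and less RNA per cell cannot be told apart.

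Translation of most mRNAs starts when eIF2 brings the initiator tRNA to the small ribosomal subunit, where the large complex eIF3 serves as a scaffold, while eIF4E, eIF4G and the RNA helicase eIF4A recognise and open the capped 5′ end of the mRNA. The exchange factor eIF2B recharges eIF2 with GTP, and phosphorylation of eIF2 under stress blocks that step. After eIF5 and eIF5B have helped to choose the start codon and join the subunits, eEF1 brings each aminoacyl-tRNA to the ribosome and eEF2 moves it along. Waking and sleep are known to differ in brain protein synthesis, and much of the control acts on the proteins, which an array of mRNA levels does not see.

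The 42 genes fell into 6 roles. eIF2 and initiator tRNA delivery had 2 genes (eIF2beta, a subunit of eIF2, and eIF2A, a separate protein that in mammals can deliver the initiator tRNA). eIF2B had 5, eIF3 had 16, and the eIF4 factors of cap recognition and helicase had 10. Start codon choice and subunit joining had 4 (eIF1, eIF5, eIF5B and eIF6), and elongation had 5 (eEF1alpha2, eEF1delta, eEF1gamma, eEF5 and eEFSec). Mean signal lay above the median of all probe sets for 31 of them. The 11 below it were eEFSec, eIF2Bgamma, eIF4H2, the variant cap-binding proteins eIF4E3 to eIF4E7, and 3 numbered paralogs of eIF3 subunits, eIF3d2, eIF3f2 and eIF3g2. Ranges over the groups are given beside the spread within groups, without a reference over all probe sets. Group means of a gene spanned a median range of 0.264 on the log2 scale over the 7 groups of the deprivation experiment and 0.187 over the 3 groups of the active period experiment, where the median spread within groups was 0.129 (SD) and 0.106. The narrowest ranges belonged to 2 subunits of eIF2B, eIF2Balpha at 0.0989 in the deprivation experiment and eIF2Bepsilon at 0.0225 in the active period experiment. eEF1alpha2 had the widest range in both, 0.938 and 0.607.

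**Figure D1:**
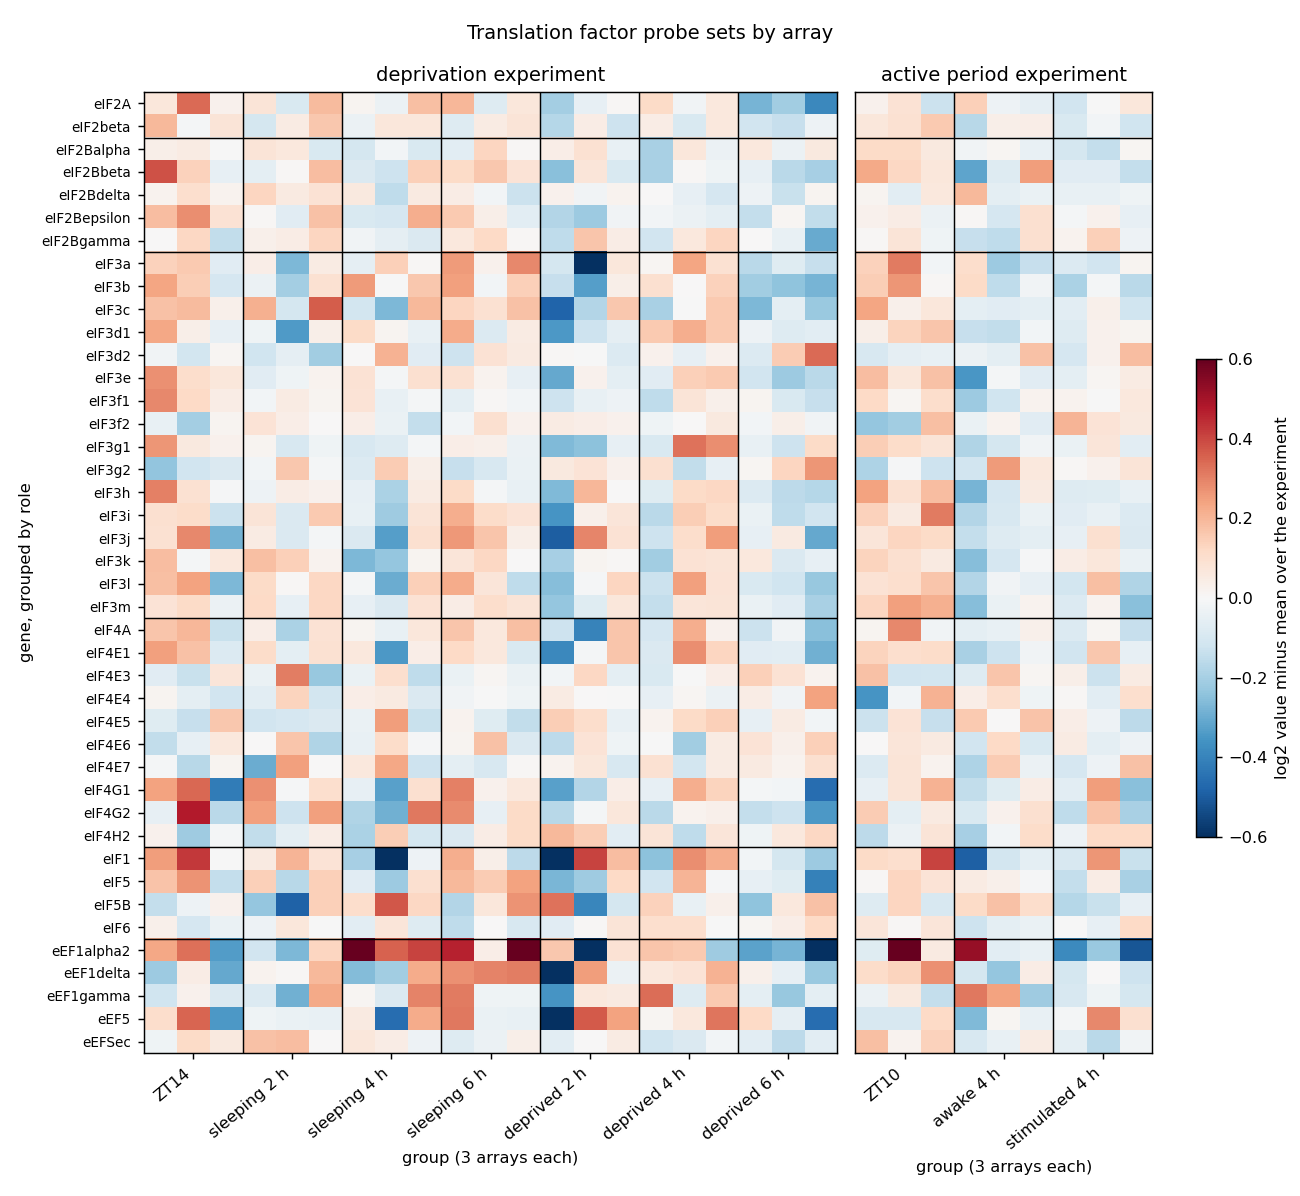
Log2 value of each of the 42 genes (rows, grouped by role) on each array (columns, 3 per group) minus the gene's mean over the experiment, with colours ending at ±0.6. The arrays of flies deprived for 6 h are mostly blue (lower) outside the dim genes, those of ZT10 are mostly red (higher) for eIF3, and eEF1alpha2 varies more than any other row.

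Some facts of the arrays bear on these values. Array medians lay between 4.88 and 4.96 on the log2 scale, and arrays of a group correlated at 0.974 to 0.997. The source name of sleeping 6 h replicate 1 calls it deprived, while its title, description and condition call it sleeping. It was grouped by title. For 6 h, the count of lower genes, the count without overlap and the median over all the factors are given without it as well. The 6 h differences of single genes, roles and marker lists include that array. The 3′ probe set of the GAPDH control exceeded the 5′ probe set by 1.40 to 2.36 (log2) in the deprivation experiment and by 2.20 to 2.91 in the active period experiment, a larger gap meaning less signal from the 5′ end of the transcript. It was widest within the first experiment on deprived 2 h replicate 2. All 4 arrays of one hybridisation date, the fourth, were of deprived flies, and at 2 h and at 6 h the deprived and the sleeping arrays shared no hybridisation date, so date and deprivation cannot be told apart within those hours. Of the marker lists, 9 of 10 neuron and 8 of 10 glia genes were measured, with mean log2 levels over the list of 5.61 to 6.65 and 6.97 to 7.54 on the arrays. Fat body (8 of 9) and photoreceptor markers (5 of 12) were measured as well, at 7.27 to 8.37 and 5.84 to 7.19. Levels of different probe sets cannot be set against each other, so no share of a tissue was read from them.

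The first question was whether the factors differ between deprived and sleeping flies over 2, 4 and 6 h. None of the 42 genes passed an adjusted p of 0.05 in the mean of the 3 differences (limma with Benjamini-Hochberg adjustment over all 13966 probe sets), where 129 probe sets, or 0.924%, did. At an unadjusted p under 0.05 there were 7 genes, all of them lower in deprived flies (16.7% of the members), beside 14.4% of all probe sets, of which 7.82% were lower. The direction was mostly downward: 29 of the 42 genes were lower, with a median difference of -0.05, while 45.8% of all probe sets were lower and their median was 0.01. Of the 31 brighter genes 26 were lower with a median of -0.08. Among probe sets above the median signal 56.5% were lower, with a median of -0.02. Without deprived 2 h replicate 2 the count of lower genes was 30, and without sleeping 6 h replicate 1 it was 30. Without the 4 arrays of the fourth hybridisation date it was 34. When the arrays were quantile normalised again it was 27, the median of the 42 genes was -0.03, and that of the brighter probe sets was 0.01. A test of any difference at the 3 hours together (moderated F) passed no gene either, beside 0.222% of probe sets, and 5 genes had an unadjusted p under 0.05, beside 12% of all.

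The gene with the largest difference was eEF1alpha2, one of the 2 fly genes for the elongation factor that carries aminoacyl-tRNA to the ribosome. In sleeping flies its log2 values were 8.20, 8.04 and 8.44 at 2 h, 9.0, 8.67 and 8.72 at 4 h, and 8.78, 8.35 and 8.94 at 6 h. In deprived flies they were 8.47, 6.79 and 8.40 at 2 h, 8.48, 8.47 and 8.10 at 4 h, and 7.99, 8.03 and 7.54 at 6 h. At ZT14 they were 8.55, 8.64 and 7.98. Deprived and sleeping arrays did not overlap at 4 h and at 6 h, while at 2 h the deprived group held one array far below the rest and 2 among the highest. The mean difference was -0.54 ± 0.18 (SE; 95% confidence interval -0.91 to -0.17; adjusted p = 0.186, limma), which is 1.45-fold lower, with 7 of 9 deprived arrays below the mean of their sleeping group. At 6 h it was -0.83 ± 0.31 (adjusted p = 0.2, limma), at 4 h -0.45 ± 0.31 and at 2 h -0.34 ± 0.31. Without deprived 2 h replicate 2 the 2 h difference turned to 0.21 and the mean difference was -0.36. Without that array the spread was smaller and the 6 h difference, unaltered in size, passed (adjusted p = 0.0408, limma). The share of all probe sets passing in that fit is not given here, so the call is not read as particular to eEF1alpha2. The mean difference was -0.28 within chip lot 2 and -0.68 within chip lot 3. In both lots some hours set a single deprived against a single sleeping array, and deprived 2 h replicate 2 belonged to lot 3.

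Values of the 5′ control stand beside those of eEF1alpha2 for the same arrays. The array that was lowest for eEF1alpha2, deprived 2 h replicate 2, was also lowest for the 5′ control probe set of eIF4A, at 7.66 where the other arrays of the experiment lay at 8.19 or above. Sleeping 4 h replicate 1 was highest for both, at 9.0 and 9.63. Deprived 4 h replicate 2 was next to it for the 5′ control, at 9.54, with eEF1alpha2 at 8.47, below the 3 sleeping arrays of that hour. With the gap between the 3′ and 5′ probe sets of GAPDH as a covariate, an alternative chosen after seeing the data, the mean difference of eEF1alpha2 was -0.19 (adjusted p = 0.791, limma) and the 6 h difference was -0.30. When arrays were weighted by how well they fitted their group, the mean difference was -0.47 and passed (adjusted p = 0.0112, limma), in a setting that called 8.28% of all probe sets.

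**Figure D2:**
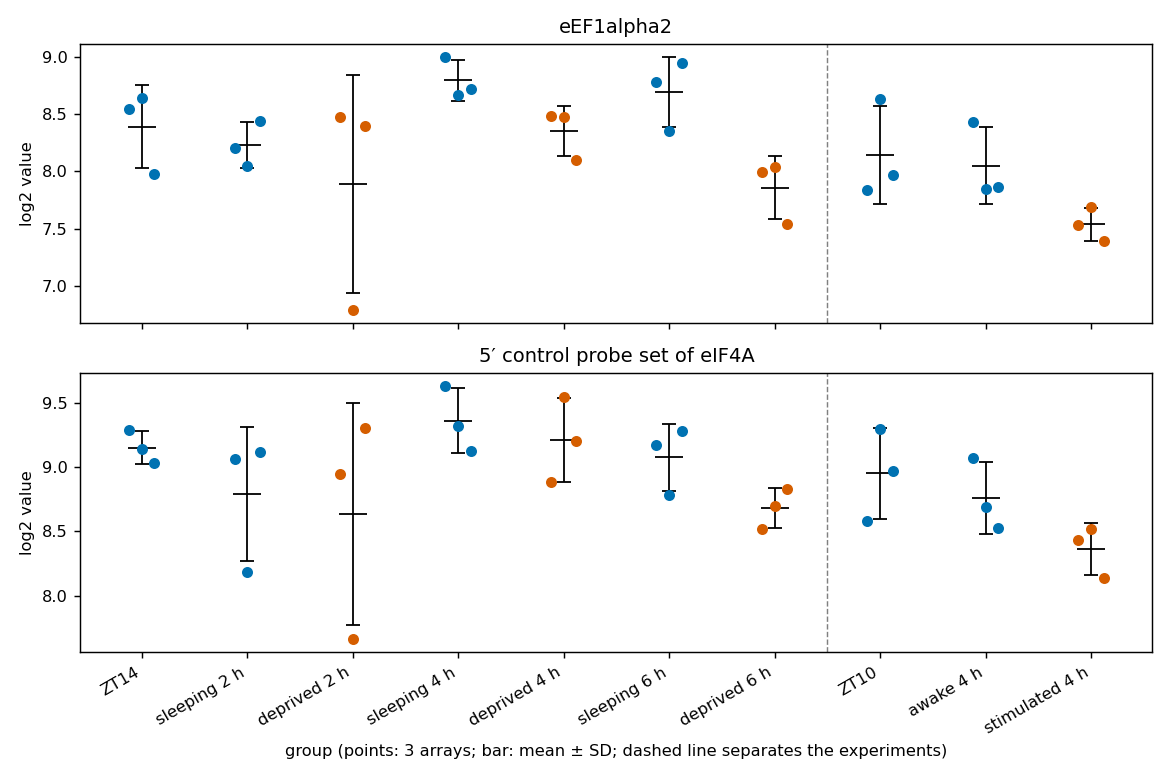
Log2 values of eEF1alpha2 (top) and of the 5′ control probe set of eIF4A (bottom) on every array, with blue for undisturbed groups, orange for deprived or stimulated groups, and bars for the mean ± SD of 3 arrays. Deprived 2 h replicate 2 is the lowest array in both panels, at 6.79 and 7.66, and the 3 stimulated arrays lie below the 3 awake arrays in both.

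The other elongation factors differed less. eEF1delta and eEF1gamma, subunits of the complex that recharges eEF1alpha with GTP, had mean differences of -0.13 ± 0.10 and -0.06 ± 0.08 (SE). eEFSec, the elongation factor for selenocysteine, was lower on 9 of 9 deprived arrays than the mean of their sleeping group, with a mean difference of -0.10 (adjusted p = 0.286, limma). Its values were 3.84, 3.85 and 3.66 in sleeping flies at 2 h against 3.60, 3.67 and 3.71 in deprived flies, a small gap at low signal. eEF5, which carries hypusine and helps the ribosome through stretches of proline, had a mean difference of 0.00 ± 0.13, though its deprived 2 h replicate 1 stood at 7.54 and the other deprived arrays of that hour at 8.57 and 8.45.

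Among the initiation factors the largest mean differences were those of eIF3c (-0.20 ± 0.08), eIF3b (-0.17 ± 0.06) and eIF2A (-0.17 ± 0.06), with adjusted p of 0.312, 0.224 and 0.216 (limma). eIF3b and eIF3c are core subunits of eIF3. eIF2beta was lower by 0.09 on the log2 scale on average, eIF4A differed by -0.11 ± 0.07, eIF4G1, the scaffold of the cap complex, by -0.12 ± 0.10, and eIF4E1, the main cap-binding protein, by -0.03 ± 0.08, a value that turned to 0.01 when the arrays were quantile normalised again. eIF2Bepsilon, the catalytic subunit of the exchange factor, was lower on 9 of 9 deprived arrays (-0.12 ± 0.05, adjusted p = 0.325, limma). Differences above 0 were smaller and lay mainly in dim genes: eIF4E5 (0.10 ± 0.05), eIF4H2 (0.07 ± 0.06), eIF6, which keeps the large subunit from joining too early (0.07 ± 0.04), and eIF3d2 (0.06 ± 0.06). Where a gene had several probe sets, as 5 did, their mean differences shared a sign except for eIF2Bdelta, at -0.04 and 0.06.

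eIF4A offered a check inside the array, because the chip also carries 3 control probe sets along its transcript. Its own probe set read 11.68, 11.58 and 11.69 in flies that slept 6 h and 11.38, 11.49 and 11.26 in flies deprived for 6 h, without overlap. The difference was -0.27 on that probe set and -0.28, -0.21 and -0.39 on the 3′, middle and 5′ controls, so the direction was shared by all 4, although the SE was 0.16 on the middle and 0.30 on the 5′ control. At 4 h the 3 controls differed in sign, at 0.09, -0.05 and -0.15. In the mean over the 3 hours they gave -0.12, -0.12 and -0.23 beside -0.11. With the GAPDH gap as a covariate the mean difference of eIF4A turned to 0.01.

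The members were mostly lower in deprived flies at 2 h and 6 h and mostly higher at 4 h. At 2 h 32 of the 42 genes were lower in deprived flies (median -0.09; all probe sets 44.8% lower, median 0.02), at 4 h 15 were lower (median 0.04; all probe sets 56.7% lower, median -0.02), and at 6 h 32 were lower (median -0.15; all probe sets 46.1% lower, median 0.02). Of the 31 brighter genes 28, 9 and 29 were lower at 2, 4 and 6 h. Among probe sets above the median signal 56.6%, 49.0% and 59.8% were lower. Of the 11 dimmer genes 4, 6 and 3 were lower, where 33.0%, 64.4% and 32.4% of dim probe sets were. With hybridisation date as a block the medians of the 42 genes at 2 h and 4 h turned, to 0.0303 and -0.0299. No gene passed at 2 h, at 4 h or at 6 h, where 0.00716%, 0.0143% and 0.0931% of probe sets did, and 1, 1 and 12 genes had an unadjusted p under 0.05 (limma), beside 8.33%, 4.37% and 18% of all probe sets. The 12 of 6 h were 11 lower and 1 higher, where 8.55% and 9.4% of probe sets were. The arrays of 3 genes lay wholly below and those of 1 wholly above the sleeping arrays at 2 h, beside 4.86% and 7.15% of probe sets, and at 4 h there was 1 on each side, beside 6.52% and 3.44%. Change of the difference from 2 to 6 h passed for no gene, where 0.00716% of probe sets did, with an unadjusted p under 0.05 for none of the 42 and for 3.32% of all probe sets. Changes from 2 to 4 h and from 4 to 6 h, tests added after seeing the data, passed for no gene either (0% of all probe sets), with 2 and 4 genes at an unadjusted p under 0.05 (limma), beside 6.81% and 11.5% of all probe sets.

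The 2 h result rested on one array. Deprived 2 h replicate 1 had the lowest values of its group for eIF1 (7.69 beside 8.81 and 8.59), for eEF1delta (5.90 beside 6.85 and 6.57), for eIF3c (6.27 beside 6.57 and 6.91) and for eIF4E1 (8.10 beside 8.48 and 8.66). Over all 42 genes its median deviation from the mean of the experiment was -0.17, and those of replicates 2 and 3 were 0.00 and 0.02. Without it 21 of the 42 genes were lower at 2 h and the median was -0.003. The largest differences of that hour were eEF1alpha2 and eIF3c (-0.32 ± 0.15) on the lower side, and eIF4E5 (0.17 ± 0.09) and eIF4H2 (0.15 ± 0.10) on the upper side.

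At 4 h the largest difference upward was that of eIF1, a small factor that keeps the ribosome scanning until it meets the start codon. Its values were 8.20, 7.73 and 8.38 in sleeping and 8.16, 8.68 and 8.62 in deprived flies, a difference of 0.38 ± 0.22 (adjusted p = 0.956, limma) in which the groups overlapped. eIF3g1 differed by 0.23 ± 0.10, a value that turned to -0.03 without the arrays of the fourth hybridisation date. On the lower side stood eEF1alpha2, eIF5B (-0.16 ± 0.17, and 0.02 with the GAPDH covariate) and eEFSec (-0.10 ± 0.07). Within the second hybridisation date, which held deprived 4 h replicate 1 and sleeping 4 h replicates 2 and 3, the median over the 42 genes was -0.04. That single deprived array had a median deviation of -0.05 from the mean of the experiment. The other deprived arrays of that hour had 0.07 and 0.07.

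At 6 h the deprived arrays of 17 genes lay wholly below the sleeping arrays and those of 4 genes wholly above, beside 13.4% and 15.4% of all probe sets. The 17 held 7 eIF3 subunits, 3 of the eIF4 factors (eIF4A, eIF4G1 and eIF4G2), 3 elongation factors (eEF1alpha2, eEF1delta and eEF1gamma), 2 subunits of eIF2B, eIF2A and eIF5. By role the medians were -0.23 for the 2 genes of initiator tRNA delivery, -0.14 for eIF2B, -0.17 for eIF3, 0.04 for eIF4, -0.10 for start codon choice and joining, and -0.21 for elongation. Brighter genes had a median of -0.19, where probe sets above the median signal had -0.05. Dimmer genes had a median of 0.06, which equalled that of dim probe sets.

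eIF2A had the smallest p of the hour. It read 8.79, 8.51 and 8.66 in sleeping flies and 8.31, 8.38 and 8.21 in deprived flies, so that all deprived arrays lay below all sleeping ones. The difference was -0.35 ± 0.10 (95% confidence interval -0.56 to -0.15; adjusted p = 0.132, limma). For eIF3b the values were 7.13, 6.87 and 7.03 in sleeping flies and 6.67, 6.65 and 6.61 in deprived flies. Its difference was -0.37 ± 0.11 (adjusted p = 0.135, limma), again without overlap. eIF5, which makes eIF2 hydrolyse its GTP during start codon choice, read 8.16, 8.11 and 8.20 against 7.91, 7.89 and 7.56. That was a difference of -0.37 ± 0.13 (adjusted p = 0.196, limma). eEF1delta read 6.88, 6.90 and 6.91 against 6.63, 6.55 and 6.38, a difference of -0.37 ± 0.17 (adjusted p = 0.258, limma). The arrays of eIF2beta overlapped, at 7.69, 7.81 and 7.84 against 7.65, 7.63 and 7.73. The clearest gene in the other direction was eIF3g2, a dim paralog of the subunit eIF3g, at 3.16, 3.20 and 3.25 in sleeping and 3.30, 3.42 and 3.56 in deprived flies (0.23 ± 0.08, adjusted p = 0.202, limma). It was followed by eIF6 at 0.14, whose extra probe set gave 0.17, then by eIF3d2 at 0.13 and eIF4E7 at 0.11.

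Several measures moved along with the 6 h difference. When the arrays were quantile normalised again the median of the 42 genes was -0.07, with 27 lower and 15 without overlap on the lower side, beside 46.3% and 12.0% of all probe sets. Without sleeping 6 h replicate 1 it was -0.10, with 33 genes lower and 19 without overlap, where 15.5% of all probe sets had none. Because the arrays of both groups came from different hybridisation dates, a fit with date as a block compares them through the other groups: it gave a median of -0.31 and passed 5 of the 42 genes, beside 5.04% of all probe sets. Within chip lots 2 and 3 the medians at 6 h were -0.17 and -0.13. In lot 2 this set deprived 6 h replicate 1 alone against sleeping 6 h replicate 1, the array whose source name calls it deprived. A fit of the 6 h groups alone passed eEF1alpha2 (adjusted p = 0.0459, limma), beside 0.859% of probe sets. Of the neuron markers 8 of 9 were lower in deprived flies at 6 h (median -0.36), and of the glia markers 7 of 8 (median -0.22). Of the haemocyte markers 6 of 7 were lower (median -0.16), at a mean of 5.04 to 5.17 on deprived and 5.13 to 5.38 on sleeping arrays. All 10 ovary and germline markers measured were higher (median 0.13). Their mean was 4.01 to 4.09 on deprived and 3.87 to 4.01 on sleeping arrays, below the array medians. Of probe sets below the median signal 32.4% were lower at 6 h, with a median of 0.06, and of those above it 59.8%. Muscle markers had 4 of 9 lower (median 0.07), fat body markers 4 of 8 (median -0.12) and photoreceptor markers 4 of 5 (median -0.05). The GAPDH gap was 1.94 to 2.21 on the deprived and 1.59 to 1.81 on the sleeping arrays. The part of each of these in the result was not tested, except that with the GAPDH covariate the median of the 42 genes was -0.14.

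**Figure D3:**
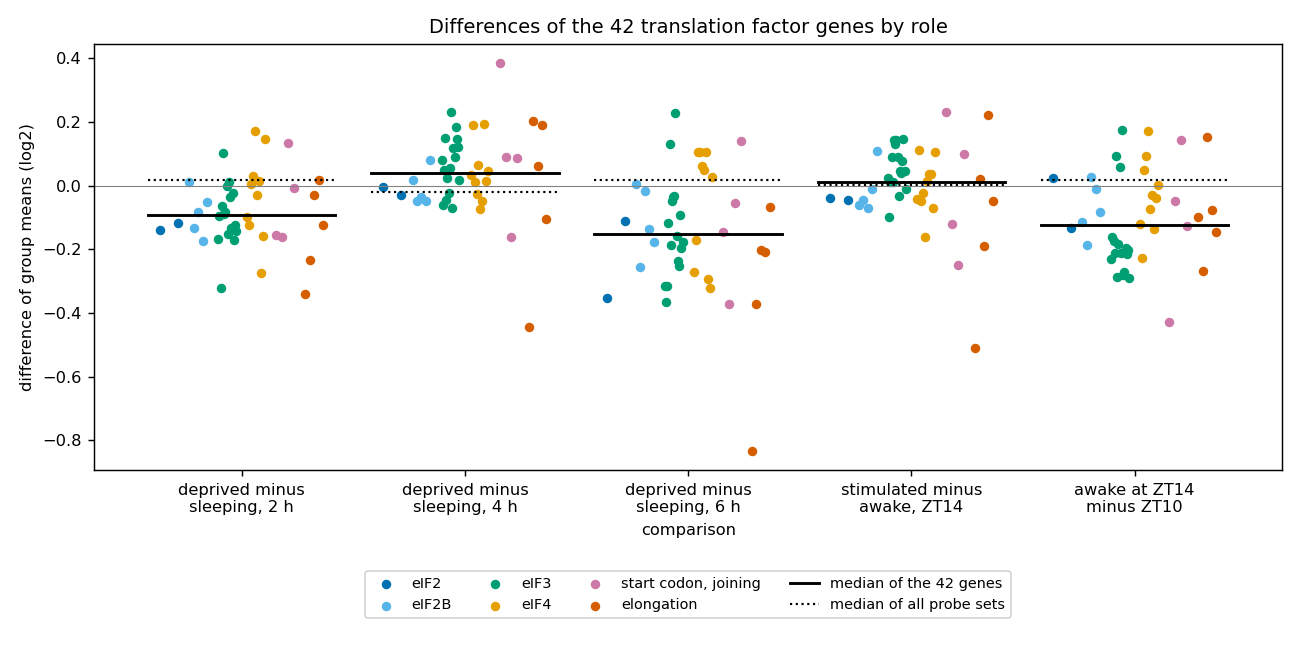
Difference of group means (log2) of each of the 42 genes (points, coloured by role) in 5 comparisons, with the median of the 42 genes as a solid line and the median of all probe sets as a dotted line. The solid line lies below the dotted one at 2 h, at 6 h and from ZT10 to ZT14. In the comparison with ZT10, 13 eIF3 points lie between -0.29 and -0.16, and those of the 3 dim paralogs lie at 0.06 to 0.17.

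The ZT14 group gives the course over the night. In flies that slept, 22 of the 42 genes had a trend above 0 and 20 below 0 over the 6 h, with a median of 0.00, where 46.3% of probe sets were below 0, and none passed, where 0.107% of probe sets did (1 gene on each side at an unadjusted p under 0.05, beside 7.89% of all probe sets). The largest were eEF1alpha2 (0.44 ± 0.29), eEF1delta (0.36 ± 0.16) and eIF1 (-0.30 ± 0.21). In deprived flies 29 genes had a trend below 0, with a median of -0.10 over 6 h, while 45.9% of probe sets were below 0, and none passed (limma), where 0.294% of probe sets did. At an unadjusted p under 0.05 there were 8 with a trend below 0 and 1 above, beside 7.64% and 8.06% of all probe sets. eIF2A had the lowest trend, -0.35 ± 0.10 (adjusted p = 0.135, limma). Its values at ZT14 were 8.66, 8.93 and 8.62, all above its 3 arrays of 6 h deprivation. It was followed by eEF1alpha2 (-0.34 ± 0.29) and eIF1 (-0.27 ± 0.21), and eIF3g2 was highest at 0.23 ± 0.08. Both trends share the ZT14 arrays, of which replicate 3 alone was hybridised on the fifth date and scanned on a later day, last of the 21. Over the 5 elongation genes its median deviation from the mean of the experiment was -0.31, where ZT14 replicates 1 and 2 had -0.02 and 0.11. With an array left out, the sleeping trend of eEF1alpha2 ran from 0.26 to 0.59. Quantile normalisation again brought the median of the deprived trend to -0.03.

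Handling was controlled by stimulating flies from ZT10 to ZT14, when they are awake. Stimulated and awake flies differed little: 19 of the 42 genes were lower and 23 higher, with a median of 0.01 where 48.8% of all probe sets were lower and their median was 0.00. The arrays of 2 genes lay wholly below and those of 1, the dim eIF3f2, wholly above, beside 5.75% and 6.77% of probe sets. None passed, beside 0.0859% of probe sets, and 3 genes had an unadjusted p under 0.05 (limma), beside 7.03% of all. eEF1alpha2 was again the largest. It read 8.43, 7.85 and 7.87 in awake flies and 7.53, 7.69 and 7.40 in stimulated flies without overlap, a difference of -0.51 ± 0.18 (95% confidence interval -0.90 to -0.12; adjusted p = 0.622, limma), or 1.42-fold lower. The 5′ control probe set of eIF4A differed the same way by -0.40 while the 3′ and middle controls differed by 0.05 and -0.14, and with the GAPDH covariate the difference of eEF1alpha2 was -0.30. eIF5B, the GTPase that joins the subunits, was the other gene without overlap on the lower side: 8.21, 8.28 and 8.20 in awake flies and 7.93, 7.96 and 8.05 in stimulated flies (-0.25 ± 0.08, adjusted p = 0.552, limma). Its other probe sets gave -0.32 and -0.07. On the upper side stood eIF1 (0.23 ± 0.13) and eEF5 (0.22 ± 0.10). The difference between the 4 h deprivation effect and the stimulation effect was tested directly and passed for no gene and no probe set (0%), with an unadjusted p under 0.05 for none of the 42 and for 1.76% of all probe sets.

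The course of undisturbed waking from ZT10 to ZT14 showed the most uniform pattern. All 13 eIF3 subunit genes other than the 3 numbered paralogs were lower in awake flies at ZT14 than at ZT10, by 0.16 to 0.29 on the log2 scale (median -0.21). The paralogs eIF3d2, eIF3f2 and eIF3g2, all of low signal, were higher by 0.06 to 0.17. Of all probe sets below the median signal 37.3% were lower in this comparison, with a median of 0.03. Above the median signal 52.6% were lower, with a median of -0.01. None of the 42 genes passed the adjusted threshold (limma), where 0.0644% of probe sets did. At an unadjusted p under 0.05 there were 15 genes, all lower, 12 of them eIF3 subunits, beside 6.42% of all probe sets lower and 11.4% in either direction. The arrays of 16 genes lay wholly below those of ZT10, 10 of them eIF3 subunits, and those of no gene wholly above, beside 7.48% and 8.76% of all probe sets. Over the 42 genes 31 were lower with a median of -0.12, while 44.9% of all probe sets were lower with a median of 0.02.

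The values show how close the subunits ran. eIF3e read 8.78, 8.66 and 8.77 at ZT10 and 8.25, 8.58 and 8.52 in awake flies at ZT14 (-0.29 ± 0.09, 95% confidence interval -0.48 to -0.09; adjusted p = 0.314, limma). eIF3m, which with eIF3e belongs to the core of the complex, read 9.49, 9.61 and 9.58 against 9.11, 9.32 and 9.38 (-0.29 ± 0.09). eIF3h read 9.76, 9.61 and 9.71 against 9.24, 9.42 and 9.57 (-0.28 ± 0.09), and its other probe set gave -0.19. In each of these 3 genes awake 4 h replicate 1 was the lowest array of all 6. Outside eIF3 the largest was eIF1, at 8.42, 8.41 and 8.71 against 7.81, 8.19 and 8.24 (-0.43 ± 0.13; adjusted p = 0.294, limma). eEF1delta read 6.70, 6.73 and 6.87 against 6.49, 6.36 and 6.64 (-0.27 ± 0.09), and eIF4E1 read 8.63, 8.60 and 8.61 against 8.30, 8.37 and 8.48 (-0.23). eEF1alpha2, in contrast, read 7.84, 8.63 and 7.96 against 8.43, 7.85 and 7.87, so both groups overlapped (-0.10 ± 0.18). eIF2A differed by 0.03.

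The same 13 subunits in stimulated flies at ZT14 had a median difference from awake flies of 0.05. Of the 13, 2 were lower, beside 48.8% of all probe sets. Between deprived and sleeping flies all 13 were lower at 2 h (median -0.13) and at 6 h (median -0.19). At 4 h 2 of them were lower (median 0.09). Of all probe sets 44.8%, 56.7% and 46.1% were lower at 2, 4 and 6 h. Among probe sets above the median signal, where all 13 lie, these shares were 56.6%, 49.0% and 59.8%. Without deprived 2 h replicate 1, 9 of the 16 eIF3 genes were lower at 2 h, where 14 were with it. After renewed quantile normalisation 11 of the 16 were lower at 6 h, where 14 were before. The comparisons with awake flies share those arrays, as the difference from ZT10 is taken against the same 3.

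**Figure D4:**
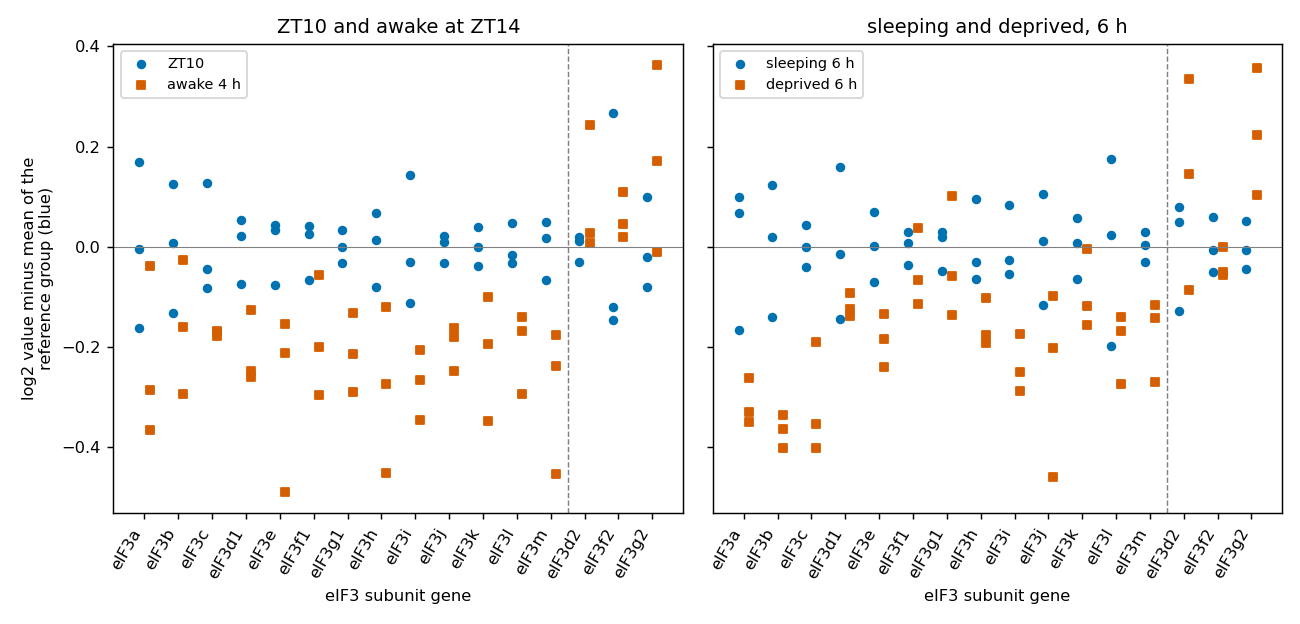
Log2 values of the 16 eIF3 genes on each array, minus the mean of the reference group (blue circles), for ZT10 and awake flies at ZT14 (left) and for sleeping and deprived flies at 6 h (right), with the 3 paralogs right of the dashed line. In the left panel the orange squares of the 13 other subunits lie below the zero line, by 0.16 to 0.29 on average. Those of the paralogs, which are dim, lie around or above it.

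Chip lot 4 held a single array, awake 4 h replicate 1, and without that array 30 of the 42 genes and all 13 subunits were still lower, 12 of the subunits without overlap, beside 45.7% of all probe sets lower and 10.2% without overlap. The 3 ZT10 arrays were scanned last of the 9, as numbers 7 to 9, so scan order and group cannot be told apart there. After renewed quantile normalisation 29 genes were lower, 11 of them without overlap, beside 7.08% of all probe sets, and the eIF3 subunits without overlap numbered 6. Other marker lists moved in the same comparison. All 8 fat body markers were higher in awake flies at ZT14, with a median of 0.34 (mean level 7.84 to 8.37 on awake and 7.48 to 7.86 on ZT10 arrays), and all 5 photoreceptor markers measured were lower, with a median of -0.55 (5.84 to 6.18 against 6.42 to 6.68). The neuron markers had a median of -0.03 with 6 of 9 lower. The part of these cells in the result was not tested.

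Other lists place the factors among other genes of translation. Of 28 regulators and partners of the factors, 22 were measured. None passed in the mean of deprived minus sleeping flies, where 3 (13.6%, beside 14.4% of all probe sets) had an unadjusted p under 0.05 (limma). Of the 22, 18 were lower with a median of -0.06, beside 45.8% of all probe sets lower. The lowest were rin, a partner of stress granules (-0.47 ± 0.15, lower on 9 of 9 deprived arrays; adjusted p = 0.166, limma), Paip2, an inhibitor of the poly(A)-binding protein (-0.23), and larp, a protein that binds mRNAs of ribosomal proteins in mammals (-0.21). The highest were mxt (0.09), NAT1, a relative of eIF4G (0.05), and Tsc1, an inhibitor of the TOR pathway (0.02). At 6 h all 22 were lower, with a median of -0.14, where 46.1% of all probe sets and 59.8% of those above the median signal were lower. An unadjusted p under 0.05 was found for 3 of the 22 at that hour (13.6%, limma), beside 18% of all probe sets. PEK and Gcn2, kinases that phosphorylate eIF2, and crc, the fly ATF4, were picked for their roles after their values were seen, and had mean differences of -0.11, -0.06 and -0.05.

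Of 11 mitochondrial translation factors 8 were measured. In the mean of deprived minus sleeping flies 7 were lower with a median of -0.12, beside 45.8% of all probe sets lower. Of these, mEFTu1 alone passed, beside 0.924% of all probe sets. It is the mitochondrial elongation factor that carries aminoacyl-tRNA. Its mean difference was -0.31 (SE 0.06, adjusted p = 0.0187, limma), and it was lower on 9 of 9 deprived arrays. Alternative fits, such as the GAPDH covariate, are not given here for mEFTu1, and at 2 h and 6 h date and deprivation cannot be told apart. At 6 h its difference was -0.52 (adjusted p = 0.0579, limma). Its difference between stimulated and awake flies was -0.15 and that between awake flies and ZT10 was 0.06. In the same mean comparison the neuron markers had a median of -0.27, with 8 of 9 lower and fne, an RNA-binding protein of neurons, passing, and the photoreceptor markers had a median of -0.44 with all 5 lower. Their part in these differences was not tested.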

How the data were processed

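The authors deposited log2 expression values of 30 arrays, made with RMA (background correction, quantile normalisation and a probe set summary) in the affy package, per the submitters' processing notes and the labels; versions, and whether both experiments were normalised together, were not stated there. RNA was labelled from a poly(T) primer, per the labels' protocols, so signal leans to the 3′ end. The 44 control probe sets were left out of the tests. Of 13966 probe sets 12443 carried 1 symbol, 327 several and 1196 none; 12394 symbols were updated by gene number. Array values were fitted with limma 3.58.1 in R 4.3.3, with a mean per group, over the 21 arrays of the deprivation experiment, the 9 of the active period experiment, or all 30 for the difference between both, in 11 comparisons. Benjamini-Hochberg adjustment of the p-values covered every probe set tested, and 0.05 was the threshold. Trends are scaled to 6 h. Tables used Python 3.11.15 with pandas 2.3.3, and the fitting code was tested on simulated data. The number of arrays limits the precision, and p-values measure the spread between 3 pools a group.

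The members and the gene lists were chosen with earlier results of these data known. The text names, in each comparison, the 4 members with the largest difference in each direction as far as space allows, the subunits of eIF2 and eEF1, eIF4A, eIF4E1, eIF4G1 and members whose probe sets differ in sign; of the other translation genes, those that passed and the 3 largest in each direction. Other members serve as examples and were picked after their values were seen. The split of eIF3 into 13 subunits and 3 paralogs was not fixed with the design. Alternatives covered scaling, weights, variance model, batches as blocks, probe set choice, signal filter, arrays left out and the samples fitted; those chosen after seeing the data were the GAPDH covariate, leaving out the fourth hybridisation date, values within batches, the counts without single arrays and the changes between neighbouring hours. Replicate numbers did not pair the samples: correlations of deviations between arrays of the same number ran from -0.58 to 0.49 over 63 pairs in the deprivation experiment and from -0.26 to 0.18 over 9 in the other. The marker lists for haemocytes and muscle had medians of 0.00 and 0.11 in the mean of deprived minus sleeping flies, and those for fat body and glia 0.02 and -0.05.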

Additional observations from a re-analysis of the deposited data

How the results depend on the processing

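For counts of calls and medians of whole comparisons, 282 of 298 values under alternatives fixed with the design moved by less than the limit set for them (1.5 times for a count, the replicate spread for a median), as did 430 of 432 with an array left out and 39 of 40 added later. For single genes 1217 of 1251, 1846 of 1854 and 167 of 172 kept both their direction and their side of the threshold; of the others 18, 7 and 5 turned in sign, and 16 and 1 kept their direction and newly passed. The replicate block passed no member in any of the 11 comparisons (0), as without it, and moved the calls over all probe sets in the mean comparison from 129 to 98. Array weights passed 2 members in the mean comparison (of 1157 probe sets), 6 in the test of any hour (of 3095), 5 at 4 h (of 1949), 3 at 6 h (of 447) and 8 in the deprived trend (of 1637). At 6 h the groups compared alone passed 1 (of 120) and the hybridisation date block 5 (of 704). Leaving out arrays gave 0 to 1 at 6 h, the 1 without deprived 2 h replicate 2, where the number over all probe sets is not given here. Medians of the members moved under the hybridisation date block to 0.0303 at 2 h, -0.0299 at 4 h, -0.31 at 6 h, -0.34 in the change from 2 to 6 h, 0.0933 in the sleeping trend and -0.0490 in the difference between deprivation and stimulation, which was -0.0390 without the fourth date. Quantile normalisation again gave -0.0683 at 6 h and -0.0280 in the deprived trend, the brighter probe sets alone gave -0.17 for awake flies against ZT10, and arrays left out gave -0.121 to -0.00319 at 2 h. Signs turned under the hybridisation date block at 2 h for eEF1alpha2 (0.32), eIF4G1 (0.33), eEF1delta (0.0721), eIF4H2 (-0.0740), eIF5B (-0.21) and eIF3d2 (-0.24), in the change for eIF3g1 (-0.0498) and eIF4E3 (-0.0597), and in the sleeping trend for eIF1 (0.27), eIF3f1 (0.0568), eIF2Bepsilon (0.0223), eIF3h (0.0147) and eIF5B (-0.19). They turned with the GAPDH covariate for eIF4A in the mean (0.00867), eIF5B at 4 h (0.0212) and eIF4E3 in the change (-0.00787); with array weights for eEF1alpha2 at 2 h (0.0570) and eIF4E6 at 4 h (0.00288) and in the difference from stimulation (0.0259); with quantile normalisation for eIF4E1 in the mean (0.0106); with the mean of probe sets for eIF3h in the sleeping trend (0.0100); and without the fourth date for eIF3g1 at 4 h (-0.0320) and eEF5 in the change (0.0675). With an array left out, values ran from -0.63 to 0.21 for eEF1alpha2, from -0.439 to 0.0348 for eEF1delta and from -0.0588 to 0.301 for eIF5B at 2 h, from -0.124 to 0.00562 for eIF4E6 at 4 h, from -0.0783 to 0.0174 for eIF4E1 in the mean and from -0.0459 to 0.221 for eIF4E3 in the change. The cause was not tested. Dim genes near the lowest signals allow no firm statement.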
